A study of Homo sapiens with 32 samples.

Results

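The change in new RNA over the last interval of a release from mitotic arrest, from 165 to 300 minutes, was measured gene by gene in HUH7, a human hepatoma cell line. RNA made during a 40 minute pulse of 0.5 mM 5-ethynyl uridine (EU), a uridine analogue, was captured through biotin and sequenced, so the values follow transcription during the pulse rather than the standing pool of RNA. Both groups came from cells of the same line held for 24 hours in 2 mM thymidine, freed for 2 hours, kept for 16 hours in 0.06 ug/mL nocodazole, shaken off, washed and replated without drug. They differ in the label time alone, 165 or 300 minutes, and the sources used here do not say whether a pulse began or ended at that time. The labels list 3 libraries (A to C) for each of the 6 release times and for an asynchronous culture that serves here for levels alone.

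The deposited table holds 1 FPKM value for each time, taken as the pool of its libraries. By name FPKM are fragments per kilobase of transcript, scaled to library size, but the formula used is not given. With 1 value per time, no spread between the 3 libraries can be given and no test was possible. Differences are therefore described by size. Of 24242 genes in the table, the 17106 with at least 10 FPKM at 165 or 300 minutes were compared, 16023 of them at that level in both times, 535 only at 165 and 548 only at 300 minutes. At the edge of that limit, LINC00691 stood at 10.0 FPKM at 165 and 9.83 FPKM at 300 minutes and was compared, while CAND2, at 9.9997 and 9.93 FPKM, was not. A difference is log2(FPKM + 1) at 300 minutes minus that at 165 minutes, and a fold is taken on the same FPKM + 1 scale.

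After division a cell enters G1. In textbook terms, growth signals raise cyclin D with its kinases, the retinoblastoma protein releases E2F factors, and E2F drives the genes of DNA replication before S phase. Immediate early genes and NF-kB targets are, by contrast, switched on within minutes of a stimulus and shut off by inhibitors that are among their own products. Hepatocytes are marked by albumin, alpha-fetoprotein in the fetal and hepatoma state, and other secreted plasma proteins.

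The typical gene was transcribed at nearly the same level at both times, with a median difference of -0.03 and 78.9% of genes within 1.5-fold. At 300 minutes 554 genes (3.24%) were at least 2-fold higher and 750 (4.38%) at least 2-fold lower than at 165 minutes. At 1.5-fold the counts were 1638 higher (9.58%) and 1977 lower (11.6%). Centred on the median of the compared genes, the counts became 605 higher and 707 lower at 2-fold. Genes that reached 10 FPKM at 1 time only had their direction fixed by that limit. Of the 16023 genes at 10 FPKM in both times, 375 (2.34%) were at least 2-fold higher and 553 (3.45%) at least 2-fold lower. Genes of DNA replication and of liver secretion lay on the higher side, and NF-kB targets, immediate early genes, YAP and TGF-beta targets and replication histones on the lower. FPKM are shares of a library, so they show no change in total RNA, and in such a bulk culture fewer cells that make an RNA and less of it per cell cannot be told apart.

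**Figure D1:**
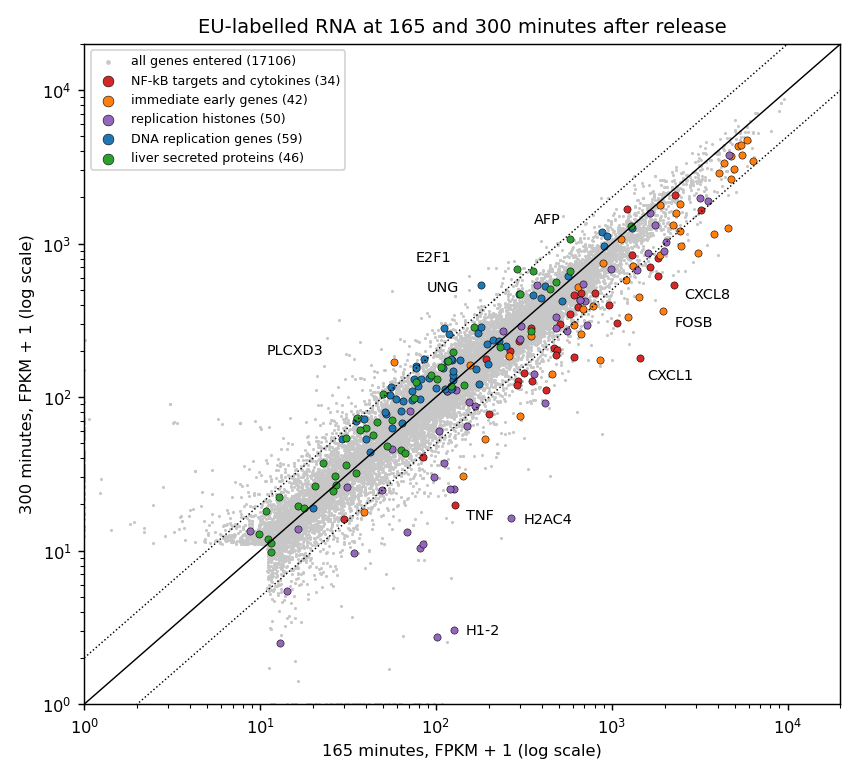
FPKM + 1 at 165 minutes (x axis, log scale) against 300 minutes (y axis, log scale) for the 17106 genes compared, 1 pooled value per time. The solid line marks equal levels and the dotted lines a 2-fold difference. NF-kB targets, immediate early genes and replication histones lie mostly below the line, DNA replication and liver secreted genes mostly above it.

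Depth was read from the values themselves. FPKM times gene span piled up at 2.32 FPKM kb at 165 minutes (205 genes) and at 2 times that value (69 genes), with 7 genes at 1.5 times. At 300 minutes the step was 2.45 FPKM kb, with 199, 65 and 8 genes. Where a gene has 1 value in the table, its level can be expressed as a number of such steps, and a 95% interval of the ratio of its levels (exact, Clopper-Pearson) follows if a step is 1 read; it is taken without the added 1 FPKM and is called the counting interval. These intervals cover counting alone, not the spread between libraries or cultures. List medians below are relative to the median of the compared genes, and list counts stand beside the 3.24% higher and 4.38% lower of all compared genes. Where 2-fold counts are limited to members at 10 FPKM in both times, the matching shares are 2.34% higher and 3.45% lower.

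DNA replication genes lay mostly higher at 300 minutes. Of 59 listed, 59 were compared, 6 exceeded 2-fold upward and 0 downward, 18 were at least 1.5-fold higher, and 50 lay above the median of the compared genes. Their median difference was 0.43 relative to that median. UNG, the uracil-DNA glycosylase that removes uracil at the replication fork, stood at 179 FPKM at 165 and 539 FPKM at 300 minutes, 2.996-fold higher. CDC45, a part of the replicative helicase, stood at 109.9 and 282 FPKM, 2.55-fold higher (counting interval 2.43 to 2.71). The remaining 4 past 2-fold were POLD2 (117 to 256 FPKM) and POLD1 (76.6 to 157 FPKM), subunits of polymerase delta, MCM10 (54.3 to 116 FPKM), an initiation factor, and MCM5 (84.5 to 177 FPKM), a helicase subunit. POLD1, MCM5 and, below, RRM2 were named after their values were seen.

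The larger part of these genes was highest at the end of the release. For 33 of the 59 the highest of the 6 release values was at 300 minutes and for 19 at 80 minutes, beside 26.6% and 26.7% of all compared genes. CDC45 was at 119, 141, 136, 106, 109.9 and 282 FPKM from 0 to 300 minutes, between 106 and 141 FPKM until the last interval, and at 398 FPKM in the asynchronous culture. MCM10 dipped to 41.2 FPKM at 105 minutes before 116 FPKM at 300 minutes. The lowest difference in the list belonged to RRM2, the small subunit of ribonucleotide reductase, at 174 and 121 FPKM.

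Of the 31 G1 cyclins, kinases, inhibitors and E2F genes compared, 3 were at least 2-fold higher and 4 at least 2-fold lower, with a median of 0.01. E2F1, the activator that drives replication genes, was at 232, 317, 303, 189, 154 and 610.1 FPKM through the release. Its 300 minute value was the highest of the 6 and 3.94-fold above that at 165 minutes (counting interval 3.65 to 4.31). TFDP2, a dimer partner of E2F named after its values were seen, stood at 31.8 and 80.6 FPKM, and CDKN1C, the inhibitor p57, at 8.902 and 31.6 FPKM from about 10 and 33 steps. CDKN1C reached 10 FPKM only at 300 minutes, so its direction was fixed by that limit; of the 30 members at 10 FPKM in both times, 2 were at least 2-fold higher.

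CCND1, the cyclin that starts G1, went the other way. It was at 986, 1314, 1881, 3279, 2623 and 662 FPKM, highest at 105 minutes and 3.96-fold lower at 300 than at 165 minutes (counting interval 3.82 to 4.11). The inhibitors CDKN2C (95.02 to 26.9 FPKM), CDKN1A (369 to 122 FPKM) and CDKN2A (390.3 to 155 FPKM, named after its values were seen) were the other 3 past 2-fold. CCNE1, the cyclin of the G1 to S transition and a textbook E2F target, was 1.19-fold lower, at 74.3 and 62.4 FPKM (counting interval 1.02 to 1.39). It stood at 293 FPKM in the asynchronous culture.

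Mitotic genes differed little in the last interval, after a larger difference between 80 and 165 minutes. Of 58 compared, none was at least 2-fold higher, 1 was lower by that much, and 10 were at least 1.5-fold lower, with a median of -0.16. CDC20, the activator of the anaphase-promoting complex, was the 1 past 2-fold, at 415 and 188 FPKM. CCNB1, mitotic cyclin B, stood at 272 and 171 FPKM after 701 FPKM at 80 minutes. AURKB, a kinase of chromosome segregation, had the largest upward difference of the list, at 66.7 and 103 FPKM, 1.53-fold higher. The median level of the 58 genes was 244 FPKM at 80, 104 at 165 and 88.4 at 300 minutes, beside 349 FPKM in the asynchronous culture.

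**Figure D2:**
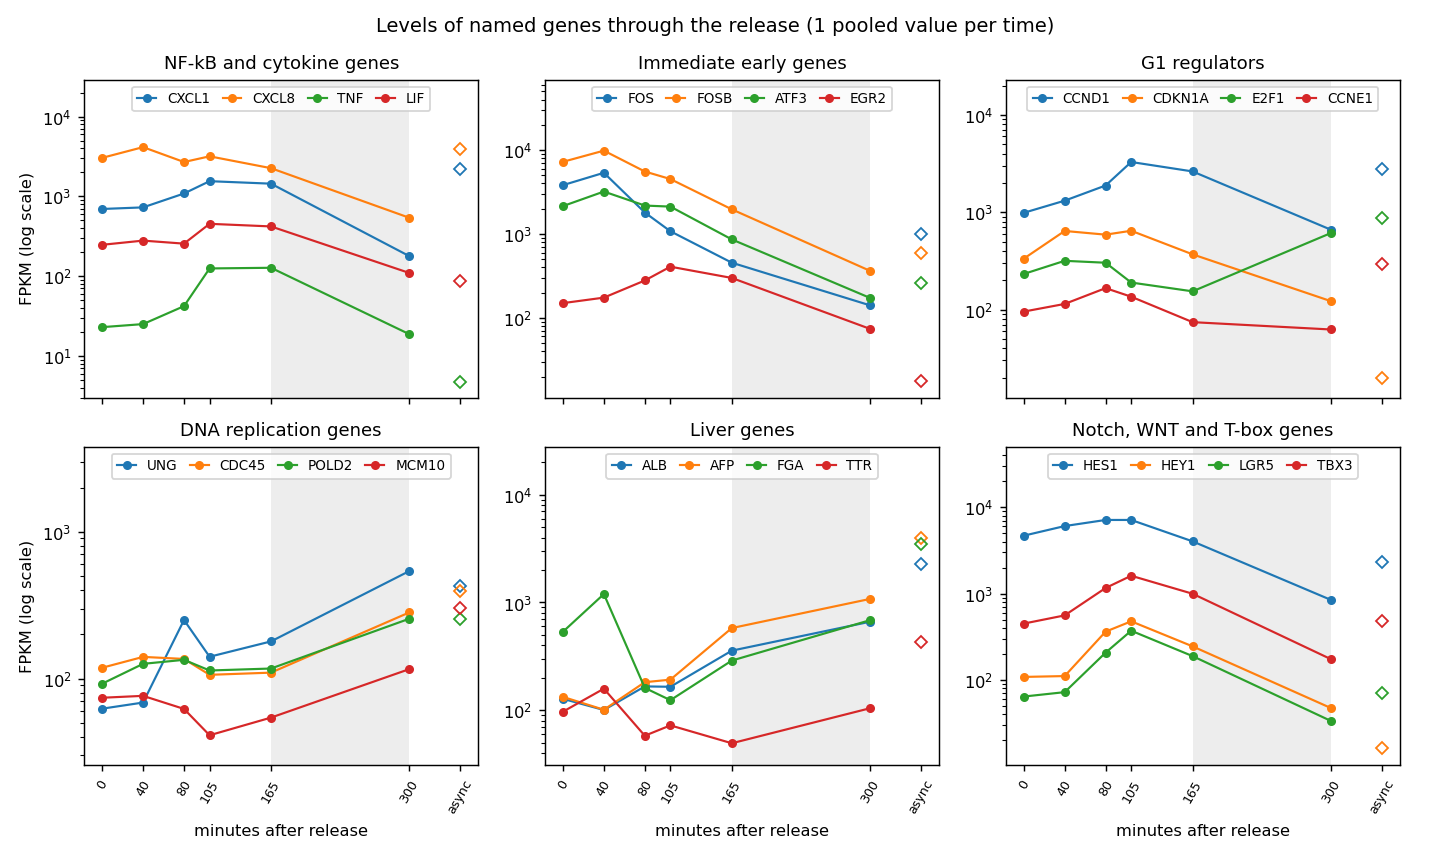
FPKM (log scale) at 0, 40, 80, 105, 165 and 300 minutes for 24 genes in 6 groups, 1 pooled value per time, with the interval from 165 to 300 minutes shaded and the asynchronous culture as an open diamond. E2F1, UNG and CDC45 are highest at 300 minutes, while CCND1, HES1 and TBX3 are highest at 80 or 105 minutes and lowest of the release at 300.

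E2F factors bind a short DNA word in the promoters of replication genes. The RefSeq promoter windows (250 bases before to 50 after a gene's start, GRCh38.p14) were searched for the words TTTCCCGC, TTTGGCGC, TTTCGCGC and TTTGCCGC on both strands. Of the 59 replication genes 52 had a window, and 26 of these held a word, beside 6.13% of the 12379 compared genes with a window and 3.99% of 27305 promoters. The 26 that held one had a median of 0.58 relative to the compared genes, with 1 at least 2-fold higher. The 26 without had a median of 0.21, with 4 at least 2-fold higher, among them CDC45 and MCM10. Of the genes at least 2-fold higher, 250 had a window and 6.80% held a word, close to the share of the compared genes. The replication list holds textbook targets of E2F, so its share with a word is not an independent result. Whether holding a word bears on the difference was not tested. The windows of E2F1 and UNG, which had the largest upward differences of the G1 and replication lists, are shown on their own strand, with the words, read on either strand, in capitals. They are chr20:33686336-33686635 (minus strand) for E2F1 and, of the windows listed for UNG, the one with a match, chr12:109097922-109098221 (plus strand).
E2F1: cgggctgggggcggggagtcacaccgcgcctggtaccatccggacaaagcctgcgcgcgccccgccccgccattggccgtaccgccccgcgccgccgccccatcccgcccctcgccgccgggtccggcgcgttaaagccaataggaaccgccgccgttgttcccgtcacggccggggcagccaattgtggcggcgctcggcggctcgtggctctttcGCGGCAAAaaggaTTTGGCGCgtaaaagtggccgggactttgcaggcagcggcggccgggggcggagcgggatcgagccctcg
UNG: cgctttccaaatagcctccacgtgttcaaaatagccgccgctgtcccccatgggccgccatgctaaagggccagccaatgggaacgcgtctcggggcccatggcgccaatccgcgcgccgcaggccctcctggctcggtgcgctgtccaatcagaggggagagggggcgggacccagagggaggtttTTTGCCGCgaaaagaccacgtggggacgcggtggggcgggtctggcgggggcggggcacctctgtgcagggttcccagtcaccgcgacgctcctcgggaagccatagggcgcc
In E2F1 the matches began 33 and 20 bases before the gene's start and in UNG 63 bases before it. A match is a run of letters, not a site shown to be bound.

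Replication histones, whose genes are transcribed most strongly in S phase, were lower at 300 minutes. Of 67 listed, 50 were compared, and 20 were at least 2-fold lower with 0 higher. Of the compared genes of this list, 7 reached 10 FPKM only at 165 minutes and 1 (H3C7) only at 300, so their direction was fixed by that limit. Of the 42 at 10 FPKM in both times, 13 were at least 2-fold lower, with a median of -0.71. Over the 50 the median was -0.82, and 46 of 50 lay below the median of the compared genes. The highest of the release was at 80 minutes for 24, at 105 for 14 and at 165 for 11, beside 26.7%, 14.9% and 16.3% of all compared genes. H2AC4 was at 791 FPKM at 80, 266 at 165 and 15.3 at 300 minutes, beside 2150.3 FPKM in the asynchronous culture.

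These genes are short, and the most extreme rest on few steps. H2AC4 came from about 60 steps at 165 and 3 at 300 minutes, a ratio with a counting interval of 6.19 to 94.6. H1-2, a linker histone, stood at 126 and 2.04 FPKM, about 40 steps and 0.61 of a step. With the latter rounded to 1 step, the counting interval was 6.43 to 1536. A part of a step is not a whole read, so that interval is rough. H3C2 was at 100.4 FPKM at 165 minutes and at 1.73 FPKM, nearer 0 steps than 1, at 300, so no fold is given. Among well covered members, H2BC5 (1392 to 677 FPKM), H2BC21 (1981 to 889.7 FPKM) and H4C4 (2046 to 1025 FPKM), named after their values were seen, were close to 2-fold lower. Of the 4 members that were higher, H3C6 had the most RNA, at 375 and 535 FPKM, and H3C7 went from 7.79 to 12.4 FPKM. Histone genes are near-identical in their coding sequence, so reads may have been shared among them.

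**Figure D3:**
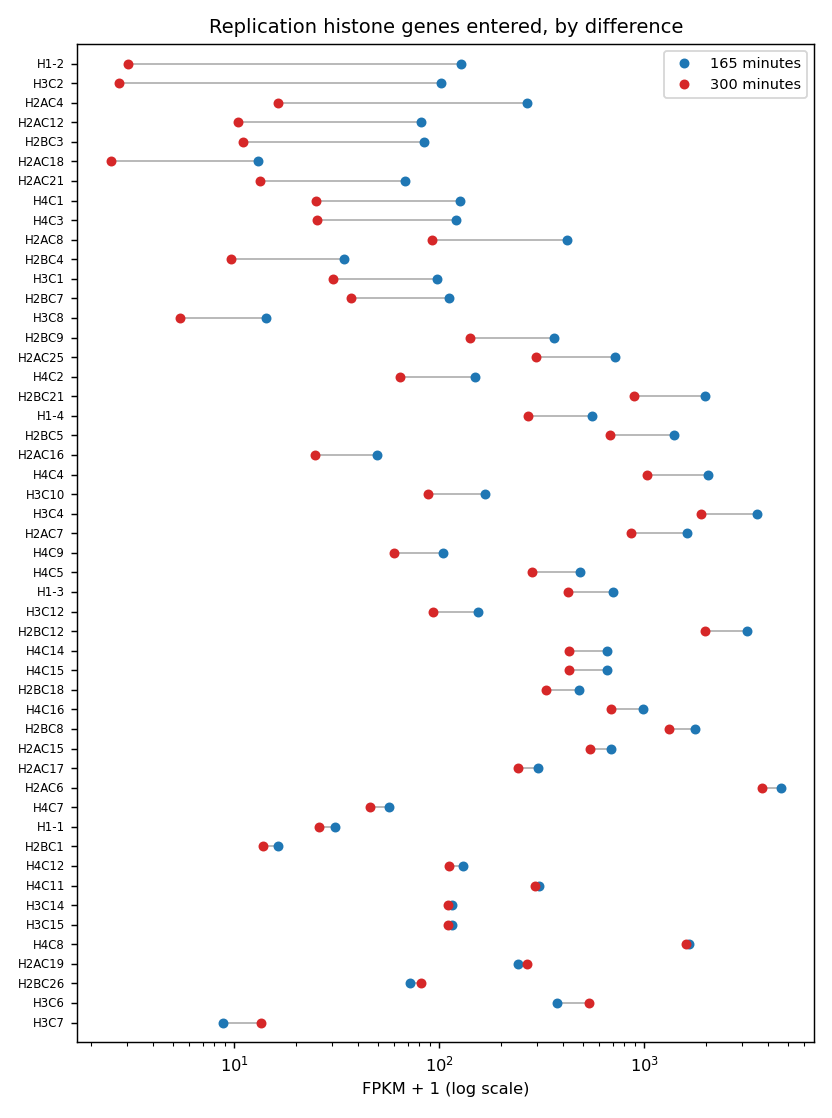
FPKM + 1 (x axis, log scale) at 165 (blue) and 300 minutes (red) for the 50 replication histone genes compared, ordered by their difference. The 300 minute value lies left of the 165 minute value for all but the last 4 genes shown, H2AC19, H2BC26, H3C6 and H3C7.

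NF-kB targets and cytokines had the lowest median of the 34 lists examined, -1.13 relative to the compared genes. NF-kB factors wait in the cytoplasm bound to inhibitors such as NFKBIA, move to the nucleus on a signal, and there act on genes with kappaB sites, including those of their own inhibitors. Of 40 listed genes 34 were compared, and 19 were at least 2-fold lower, 26 at least 1.5-fold lower and 0 at least 1.5-fold higher; NFKBIZ, at 1223 and 1674 FPKM, was the 1 above the median. The remaining 6 (CCL2, IL6, IL1A, IL1B, LCN2 and PTX3) were under 10 FPKM at both times.

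Among the ligands, CXCL1, a chemokine for neutrophils, was at 695, 728, 1087, 1551, 1443 and 179 FPKM. It was 8.05-fold lower at 300 than at 165 minutes (counting interval 6.76 to 9.68), and 300 minutes was its lowest value of the release. CXCL8, interleukin-8, stood at 2257 and 540.00 FPKM, 4.17-fold lower (3.85 to 4.55). TNF, the cytokine that itself activates NF-kB, was at 22.9, 25.03, 42.03, 125, 127 and 18.7 FPKM. At 300 minutes it rested on about 21 steps and was 6.495-fold below 165 minutes (4.34 to 11.4). No interval is given for its difference from 0 minutes. LIF, a cytokine of the interleukin-6 family, stood at 419.9 and 109.7 FPKM. CXCL1, CXCL2 and CXCL3 resemble each other in sequence, so reads may have been shared.

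Inhibitors of NF-kB in the list differed unequally. TNFAIP3 (A20), an enzyme that ends NF-kB signalling, stood at 1832 and 614 FPKM, 2.98-fold lower. NFKBIA, the inhibitor IkB alpha, stood at 3235 and 1667 FPKM, 1.94-fold lower. NFKBIB, the inhibitor IkB beta, stood at 296 and 232 FPKM, 1.27-fold lower, and NFKBIZ, of the same protein family, was higher as given above. Of the NF-kB subunits, RELB (199 to 76.3 FPKM), REL (318 to 143 FPKM) and NFKB2 (469 to 207 FPKM) were at least 2-fold lower, NFKB1 (506 to 298 FPKM) was 1.696-fold lower and RELA (347 to 280.4 FPKM) was within 1.5-fold. The genes of this paragraph were named after their values were seen. For 12 of the 34 genes the highest release value was at 105 minutes, for 10 at 165 and for 0 at 300 minutes. Over all compared genes the shares were 14.9%, 16.3% and 26.6%. A gene lower at 300 than at 165 minutes cannot be highest at 300.

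Promoter windows were searched for the kappaB word GGNNTTTCC on both strands. Of the 34 compared genes 28 had a window and 19 (67.9%) held the word, beside 8.76% of the compared genes with a window and 7.61% of all promoters. The 19 had a median of -1.12 with 11 at least 2-fold lower, and the 9 without it a median of -0.37 with 3 at least 2-fold lower. Among all genes at least 2-fold lower that had a window, 11.9% of 444 held the word, and among those at least 2-fold higher 5.60% of 250. The list is made of known NF-kB targets, so its share with the word is not an independent result. Whether the word bears on the difference was not tested. Windows of 2 chemokines and 2 inhibitors are shown on their own strand with the words, read on either strand, in capitals. They lie at chr4:73869143-73869442 (plus) for CXCL1, chr4:73740319-73740618 (plus) for CXCL8, chr14:35404700-35404999 (minus) for NFKBIA and chr6:137867009-137867308 (plus) for TNFAIP3, in GRCh38.p14.
CXCL1: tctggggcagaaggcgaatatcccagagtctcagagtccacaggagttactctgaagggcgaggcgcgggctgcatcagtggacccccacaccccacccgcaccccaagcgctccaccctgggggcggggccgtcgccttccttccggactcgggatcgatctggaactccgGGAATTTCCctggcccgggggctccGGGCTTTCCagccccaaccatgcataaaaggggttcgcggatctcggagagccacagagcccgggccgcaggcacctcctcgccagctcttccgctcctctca
CXCL8: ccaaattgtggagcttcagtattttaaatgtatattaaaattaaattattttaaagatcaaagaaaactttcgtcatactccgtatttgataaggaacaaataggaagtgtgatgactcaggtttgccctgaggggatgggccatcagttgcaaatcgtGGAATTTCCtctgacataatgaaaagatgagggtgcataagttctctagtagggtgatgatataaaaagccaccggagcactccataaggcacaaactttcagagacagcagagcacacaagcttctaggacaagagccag
NFKBIA: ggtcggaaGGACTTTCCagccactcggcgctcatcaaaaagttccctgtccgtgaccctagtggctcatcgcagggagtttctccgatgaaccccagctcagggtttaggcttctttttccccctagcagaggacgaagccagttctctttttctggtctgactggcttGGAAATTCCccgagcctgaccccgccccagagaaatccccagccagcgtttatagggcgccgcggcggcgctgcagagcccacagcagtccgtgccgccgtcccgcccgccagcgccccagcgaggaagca
TNFAIP3: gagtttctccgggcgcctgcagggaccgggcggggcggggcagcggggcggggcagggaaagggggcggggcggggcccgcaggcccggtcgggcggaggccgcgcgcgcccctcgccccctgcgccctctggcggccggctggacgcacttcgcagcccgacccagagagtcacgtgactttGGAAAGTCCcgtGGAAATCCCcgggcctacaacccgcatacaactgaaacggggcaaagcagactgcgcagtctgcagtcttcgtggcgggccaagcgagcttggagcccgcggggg
CXCL1 held the word GGAATTTCC 78 bases and GGGCTTTCC 53 bases before its start, and CXCL8 held GGAATTTCC 91 bases before. The window of TNF held no match to these letters.

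Immediate early genes had a median of -0.84. Of 42 compared, 18 were at least 2-fold lower, 25 at least 1.5-fold lower, and 40 lay below the median of the compared genes. FOS, partner of JUN in the AP-1 factor, was at 3819, 5363, 1803, 1078, 455 and 141 FPKM, lower at each time after 40 minutes. FOSB, its relative, stood at 9849 FPKM at 40, 1967 at 165 and 364 at 300 minutes, 5.39-fold lower in the last interval (5.06 to 5.77). ATF3, a stress-induced factor, stood at 862 and 173 FPKM, and NR4A3, an orphan nuclear receptor, at 142 and 29.7 FPKM. EGR2, a zinc finger factor, was highest at 105 minutes (408 FPKM) and stood at 299 and 74.02 FPKM.

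KLF2, a zinc finger factor, was the 1 member at least 2-fold higher. It stood at 309.98 FPKM at 40, 56.5 at 165 and 168 at 300 minutes, 2.95-fold higher (counting interval 2.35 to 3.81), beside 1017 FPKM in the asynchronous culture. MYC, the growth factor-induced regulator of growth genes, differed by less than 1.5-fold, at 4341 and 3375 FPKM, and was higher at both times than at 0 to 80 minutes. The highest release value was at 40 minutes for 20 of the 42, at 105 for 16 and at 300 minutes for 0. Over all compared genes the shares were 9.34%, 14.9% and 26.6%. Of the DUSP phosphatases that switch off MAP kinases, DUSP6 (2221 to 1317 FPKM) and DUSP1 (5531 to 3756 FPKM), named after their values were seen, were under 2-fold lower. Of 20 genes with a DUSP symbol compared, 3 were at least 2-fold lower and 0 higher. Of the 17 at 10 FPKM in both times, 1 was at least 2-fold lower.

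Targets of the cell contact and attachment pathways lay lower as well. Of 17 YAP-TEAD targets compared 6 were at least 2-fold and 13 at least 1.5-fold lower, with none at least 1.5-fold higher and a median of -0.83. CCN2, a matrix-associated growth factor, was at 3538 FPKM at 80, 2231 at 165 and 628 at 300 minutes. NUAK2, a kinase, stood at 1773 and 431 FPKM, 4.11-fold lower. AXL, a receptor kinase, stood at 93.1 and 41.1 FPKM.

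In the TGF-beta and SMAD list 9 of 29 were at least 2-fold lower and 0 higher, with a median of -0.69. The inhibitors of differentiation ID4 (1158 to 268 FPKM) and ID1 (3108 to 870.4 FPKM), direct targets of BMP signals, and SKIL (1019 to 280.3 FPKM), a repressor induced by TGF-beta, had the largest differences. SMAD3, a signal carrier of the pathway, stood at 608, 1325, 1796 and 665 FPKM at 0, 105, 165 and 300 minutes.

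Of 31 WNT and Notch pathway genes 9 were at least 2-fold lower and 2 higher, with a median of -0.42. HES1, a repressor induced by Notch, was at 7141, 4036 and 848 FPKM at 105, 165 and 300 minutes, 4.75-fold lower in the last interval. HEY1, of the same family, stood at 245 and 47.4 FPKM, and LGR5, the receptor that strengthens WNT signals, at 189 and 33.6 FPKM, 5.49-fold lower (5.36 to 5.896). The 2 genes at least 2-fold higher were FZD2, a WNT receptor, at 13.4 and 35.3 FPKM, and RNF43, which removes such receptors from the surface, at 57.1 and 133 FPKM. RNF43 was named after its values were seen.

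Integrin, adhesion and matrix genes had a median of -0.37, with 4 of 35 at least 2-fold lower and 0 higher. Among them were ITGAV (1509 to 552 FPKM) and ITGA5 (286 to 129 FPKM), integrin alpha chains, and AGRN (453 to 212 FPKM), a matrix proteoglycan. Fibronectin, FN1, named after its values were seen, was within 1.5-fold at 2813 and 2469 FPKM.

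**Figure D4:**
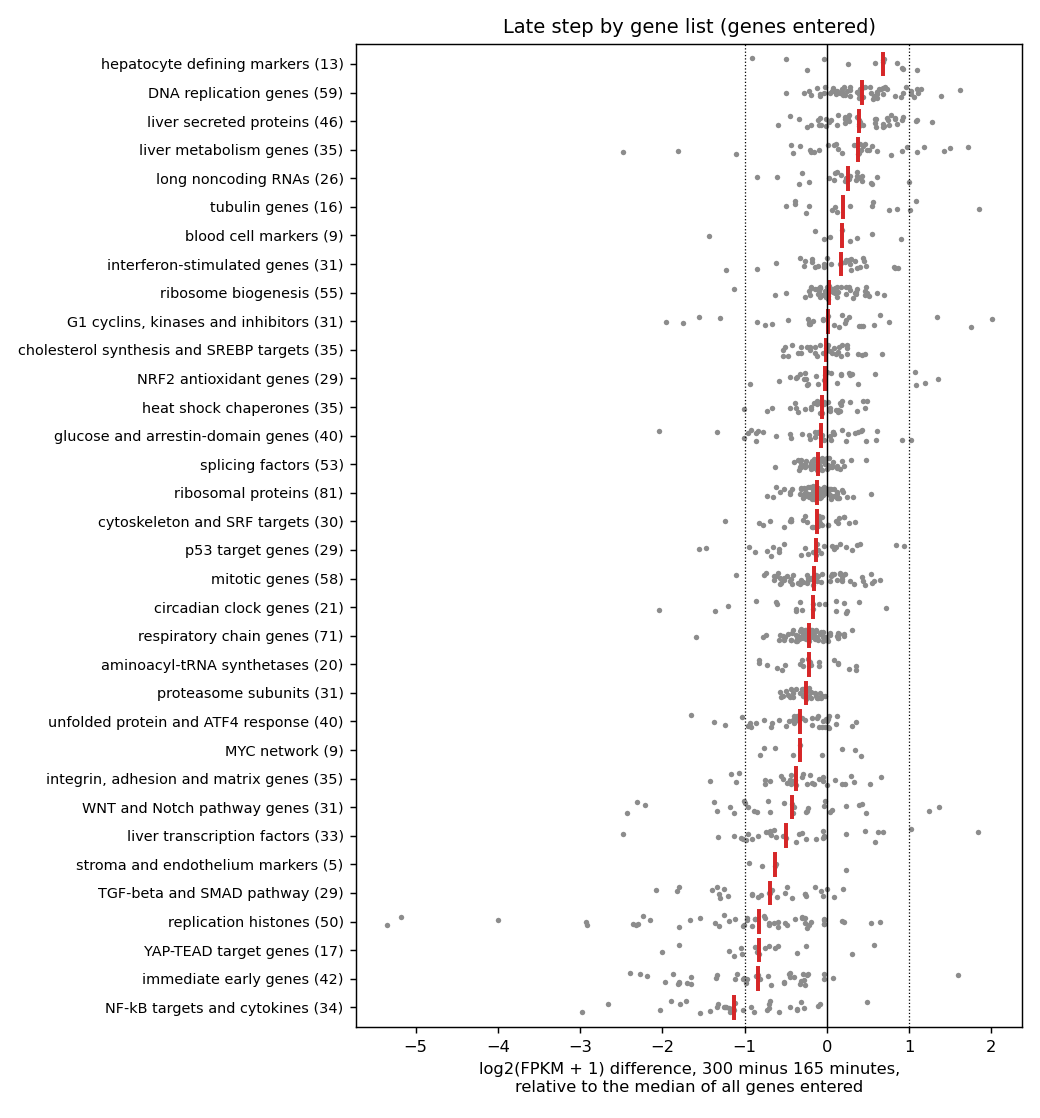
Difference in log2(FPKM + 1), 300 minus 165 minutes, relative to the median of all compared genes (x axis) for each gene of 34 lists (grey points, number compared in brackets) with the list median in red. Dotted lines mark 2-fold. List medians run from -1.13 for NF-kB targets and cytokines to 0.68 for the hepatocyte defining markers.

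Liver genes split by kind. Among secreted plasma proteins 3 of 46 compared exceeded 2-fold upward and 0 downward, 15 were at least 1.5-fold higher and 1 lower, and the median was 0.39. Of the 43 at 10 FPKM in both times, 14 were at least 1.5-fold higher and 1 lower. ALB, albumin, was at 128, 100.4, 166, 165, 357 and 662 FPKM, with its 2 highest release values in the last 2 samplings, and at 2295 FPKM in the asynchronous culture. AFP, alpha-fetoprotein, was also highest in the last 2 samplings, at 133, 101, 182, 192, 579 and 1078 FPKM, 1.86-fold higher at 300 than at 165 minutes (1.7997 to 1.93).

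The 3 genes past 2-fold were FGA (289 to 685 FPKM), a fibrinogen chain, TTR (49.3 to 104 FPKM), the thyroid hormone carrier, and CFB (34.6 to 72.6 FPKM), complement factor B. FGA was not at its peak, having been at 1197 FPKM at 40 minutes. C3, a complement protein named after its values were seen, was the 1 at least 1.5-fold lower, at 66.1 and 42.6 FPKM. For 19 of the 46 genes the highest release value was at 300 minutes, and for 14 at 40 minutes, beside 26.6% and 9.34% of all compared genes. As a check of the labelled cell type, the 13 hepatocyte defining markers were compared in full and had a median level of 300.2 FPKM at 165 and 471 FPKM at 300 minutes.

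Of 35 liver metabolism genes 5 exceeded 2-fold upward and 3 downward, with a median of 0.38. Of the 31 at 10 FPKM in both times, 3 exceeded 2-fold upward and 3 downward. Among those higher, and named after their values were seen, were FABP1 (63.7 to 142 FPKM), a fatty acid carrier, ADH6 (11.7 to 32.3 FPKM), an alcohol dehydrogenase, and CYP4F2 (4.63 to 10.8 FPKM), a fatty acid hydroxylase that reached 10 FPKM only at 300 minutes.

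The 3 metabolism genes that were lower included a pair of inducible cytochromes. CYP1B1 stood at 2322, 1252 and 219.6 FPKM at 105, 165 and 300 minutes, 5.68-fold lower in the last interval. CYP1A1 stood at 3896, 3493 and 976 FPKM, 3.58-fold lower. Both are induced through the aryl hydrocarbon receptor. ACSL1, an acyl-CoA synthetase named after its values were seen, was at 49.2 and 21.8 FPKM.

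The liver transcription factors lay lower while the secreted proteins lay higher. Of 33 compared 6 were at least 2-fold lower and 1 higher, with a median of -0.50. Of these, 3 reached 10 FPKM only at 165 minutes, so their direction was fixed by that limit. Of the 30 at 10 FPKM in both times, 6 were at least 2-fold lower and 1 higher, with a median of -0.44. TBX3, a T-box repressor of liver development, was at 1613, 998 and 175 FPKM, 5.69-fold lower in the last interval. GATA6 stood at 1647 and 645 FPKM and NR2F2, an orphan nuclear receptor, at 852 and 379 FPKM. HNF4A (1553 to 1075 FPKM, named after its values were seen) and FOXA2 (1410.00 to 731 FPKM), which define hepatocyte identity, were lower by under 2-fold. NR0B2, the repressor induced by bile acid signals, was the 1 at least 2-fold higher, at 12.2 and 45.3 FPKM from about 13 and 46 steps.

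Of the stress pathways, unfolded protein response genes lay mostly lower. In the unfolded protein and ATF4 list 4 of 40 were at least 2-fold lower, STC2 (1098 to 341 FPKM), DDIT4 (1171 to 444 FPKM), VLDLR (75.5 to 30.6 FPKM) and TRIB3 (239.9 to 114 FPKM), and 0 higher, with 12 at least 1.5-fold lower beside 11.6% of all compared genes and a median of -0.33. Among p53 targets the 2 of 29 past 2-fold were CDKN1A and BBC3 (222 to 78.1 FPKM), a promoter of apoptosis, both lower, and at 1.5-fold 9 were lower and 2 higher. AEN, a nuclease of the same pathway, was higher at 283 and 533 FPKM. Of 35 heat shock chaperones 3 were at least 1.5-fold lower and 1 passed 2-fold, BAG3 at 492 and 238 FPKM.

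In the NRF2 list the 4 genes of 29 at least 2-fold higher were the aldo-keto reductases AKR1C1, AKR1C2 and AKR1C3 and the glutathione peroxidase GPX2 (34.7 to 78.99 FPKM). AKR1C1 was at 212, 283, 269, 444, 1336 and 2748 FPKM, beside 570.2 FPKM in the asynchronous culture. AKR1C2 went from 954 to 1975 FPKM and AKR1C3 from 26.2 to 66.8 FPKM. The AKR1C genes are near-identical, so their values are uncertain one by one. The median of the list was -0.02, and NQO1, the classical NRF2 target, stood at 1248 and 1585 FPKM, named after its values were seen.

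Genes of the basic machinery differed little. None of 81 ribosomal proteins, 53 splicing factors, 31 proteasome subunits, 20 aminoacyl-tRNA synthetases or 35 cholesterol synthesis genes was at least 2-fold apart. Their medians were -0.11, -0.11, -0.26, -0.22 and 0.00, and the sign for ribosomal proteins, splicing factors and cholesterol synthesis varied with the processing. Of 55 ribosome biogenesis genes 1 passed 2-fold, UBTF, the factor of ribosomal RNA transcription, at 156 and 69.3 FPKM, and of 71 respiratory chain genes 1, COX8A, at 56.3 and 17.6 FPKM. All 31 proteasome subunits compared lay below the median of the compared genes, the lowest being PSMA7 at 685 and 451 FPKM. Tubulin genes had a median of 0.20, and TUBA1A (19.5 to 71.4 FPKM) and TUBG2 (64.3 to 135 FPKM) were at least 2-fold higher.

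A few other lists held genes past 2-fold. Of 21 clock genes 3 were at least 2-fold lower, BHLHE41 (540.2 to 128 FPKM), NPAS2 (214 to 80.9 FPKM) and NR1D2 (637 to 269.5 FPKM). Among 40 glucose and arrestin-domain genes BHLHE41, PFKFB3 (729.7 to 282 FPKM), which drives glycolysis, and VEGFA (1749.97 to 852 FPKM) were lower. TXNIP, an arrestin-domain gene, was at 334, 347, 824, 1223, 1620.2 and 2422 FPKM, higher in each interval, beside 60.2 FPKM in the asynchronous culture. TPM1, a tropomyosin, was the 1 of 30 cytoskeleton genes past 2-fold (1234 to 511 FPKM), and ACTB, beta-actin, stood at 237 and 189 FPKM. Of 31 interferon-stimulated genes IRF1 (660.2 to 276 FPKM) was the 1 at least 2-fold apart. None of 26 long noncoding RNAs or 9 MYC network genes passed 2-fold, DANCR being nearest at 784 and 1528 FPKM.

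Leaving out short structured RNAs and pseudogenes, the largest differences were ranked among genes with at least 100 FPKM at the higher and 5 FPKM at the lower time, and several of the leading genes belonged to no list. PLCXD3, a phospholipase C relative, was at 5.49, 5.703, 6.66, 8.58, 31.1 and 188 FPKM, 5.86-fold higher in the last interval (counting interval 5.78 to 6.27). It was low until 105 minutes and at 7.09 FPKM in the asynchronous culture. VCX3B, 1 of a family of near-identical genes, stood at 20.1 and 136 FPKM from about 15 and 94 steps, so its value is uncertain. TSC22D3, the glucocorticoid-induced leucine zipper, stood at 196 and 688 FPKM, 3.499-fold higher.

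Others among the 20 largest upward differences have roles at the fork or the centromere: TONSL (50.1 to 149 FPKM), which repairs stalled forks, and CENPM (37.1 to 110.4 FPKM). COQ8A, which serves coenzyme Q synthesis, stood at 41.6 and 160.04 FPKM, and SPTLC3, a subunit of the enzyme that starts sphingolipid synthesis, at 45.5 and 145 FPKM. SEMA3D, a guidance signal, stood at 43.7 and 147 FPKM. On the lower side SNAP25, of the vesicle fusion machinery, was at 512, 204 and 34.8 FPKM at 105, 165 and 300 minutes, 5.72-fold lower. The transcription factor ZIC2 (221 to 42.4 FPKM) was 5.12-fold lower and the corepressor BCOR (272 to 58.003 FPKM) 4.63-fold lower.

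Leaving out short structured RNAs, the 5 genes with the highest level at 300 minutes were FLRT3, HNRNPH1, CITED2, RBM14 and TENT5A, between 5384 and 6356 FPKM. Each was within 1.5-fold of its 165 minute level. FLRT3, an adhesion and FGF receptor partner, was at 1504 FPKM at 0, 5044 at 165 and 6356 at 300 minutes. HNRNPH1, a splicing regulator, stood at 6086 and 6298 FPKM.

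Among the same genes at a limit of 10 FPKM the largest folds rest on very few steps at the lower of the 2 times. KRTAP20-1, PPIAL4D, KRTAP19-4, LINC01723 and NKX6-3 led the upward side from 0 to 2 steps at 165 minutes. Of them NKX6-3, a homeobox gene, had the most steps at 300 minutes, 32, at 0.816 and 13.97 FPKM, a ratio with a counting interval of 4.302 to 145. On the lower side stood H1-2, H3C2, H2AC4, PYDC2 and DLX4, with 0 to 3 steps at 300 minutes and up to 60 at 165. PYDC2 was listed at 14.2 FPKM from 2 steps at 165 minutes and at 0 at 300 minutes, so no fold is given. MicroRNA genes made up many of the genes at least 2-fold apart, with 167 higher and 158 lower of 886 compared, with a median of 4.09 steps at 165 minutes. Protein-coding genes gave 282 higher and 492 lower of 13654.

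Gene span moved with the difference. Among coding and long noncoding genes the median difference was -0.30 for 154 genes under 1 kb, -0.16 for 837 genes of 1 to 3 kb, -0.02 for 4637 genes of 30 to 100 kb and 0.24 for 241 genes of 400 kb or more. Of the 241 longest, 10 (4.15%) were at least 2-fold higher and 3 (1.24%) lower, whereas of those under 1 kb 15 (9.74%) were higher and 31 (20.1%) lower. Replication histones described above, among them H2AC4, H3C2 and H1-2, are under 1 kb and so count among these genes. How far they make up the lower side of that bin was not tested. Short genes also had fewer steps, a median of 16.5 at 165 minutes under 1 kb against 9050 at 400 kb or more; their part in the spread was not tested. SOX6 (41.3 to 110.04 FPKM) and WWOX (45.01 to 95.4 FPKM) were among the 10 that were higher, and GSE1, ROR1 and DLC1 were the 3 that were lower (400.4 to 95.3, 59.1 to 26.8 and 187 to 88.9 FPKM), all named after their values were seen.

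**Figure D5:**
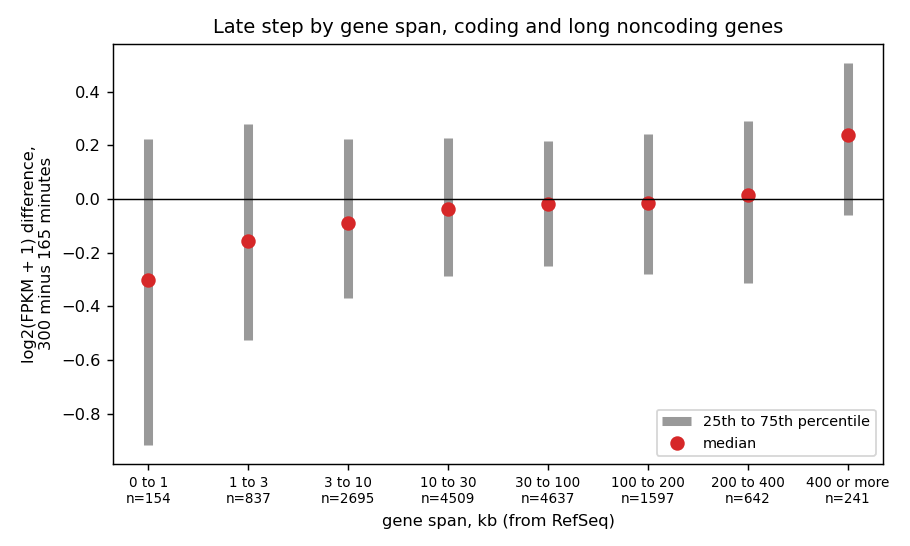
Median (red) and 25th to 75th percentile (grey bars) of the log2(FPKM + 1) difference, 300 minus 165 minutes, for coding and long noncoding genes in 8 bins of gene span, with the number of genes under each. The median goes from -0.30 under 1 kb to 0.24 at 400 kb or more.

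Placed in the whole release, the 750 genes at least 2-fold lower had a median level of 66.9, 80.1, 124, 149.5, 107 and 35.9 FPKM at 0, 40, 80, 105, 165 and 300 minutes, with 308 highest at 105 minutes. The 554 at least 2-fold higher had medians of 24.2, 31.0, 32.2, 28.8, 24.1 and 67.2 FPKM, with 397 highest at 300 minutes. The rule fixes part of this order, since a gene called lower cannot be highest at 300 minutes. Over all compared genes the medians were 73.5, 80.4, 114, 117, 110 and 112 FPKM at the same times. Of all compared genes 14.9% were highest at 105 and 26.6% at 300 minutes. In the asynchronous culture the medians of the lower and the higher genes were 62.2 and 48.1 FPKM, beside 113 FPKM for all compared genes.

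Most markers that define other cell types were under 10 FPKM at both times, with exceptions. Of 24 blood markers 9 reached 10 FPKM at either time, their summed level over those in the table being 702 FPKM at 165 and 674 FPKM at 300 minutes, mostly CD68 and LYZ. PTPRC, which defines leukocytes, was at 1.85 and 2.54 FPKM, and HBB and PPBP were listed at 0 at both times. Of 18 stroma and endothelium markers 5 reached 10 FPKM, with a summed level of 806 and 527 FPKM. LUM (399.7 to 251 FPKM) and PDGFRA (277 to 177 FPKM) made up most of it, while COL3A1, CDH5 and KDR were under 5 FPKM at both times.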

How the data were processed

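EU-labelled RNA of HUH7 cells was sequenced from stranded libraries depleted of ribosomal RNA, per the labels' protocols. The authors deposited 1 table of FPKM per RefSeq transcript, the unit being read from its header and name; each time is 1 column, taken as the pool of the 3 libraries the labels list, and how these were combined is not stated. Build hg19 and, without roles, TopHat, bedtools, bcl2fastq and Bowtie2 2.2.9 are listed in the submitters' processing notes. The sources used here give neither the FPKM formula nor whether counting used strand. The absolute FPKM scale is not the usual one. FPKM times span summed to 9.68e+07 at 0, 1.62e+08 at 165 and 1.50e+08 at 300 minutes. A scale shared by all columns would leave ratios as they are, but these sums differ. Whether ratios between times carry a difference in scale was not tested.

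Of 48205 transcripts 47127 matched a gene, and each gene took the mean of its distinct transcript values. Genes with 10 FPKM at 165 or 300 minutes were compared on log2(FPKM + 1). With 1 value per group, edges of 2-fold and 1.5-fold described differences; no test was made. Libraries without EU or with spike-ins were not analysed here. Members, the 34 gene lists and the rules were chosen with earlier results of these data known. Named genes were the 20 largest differences each way at 100 FPKM (5 FPKM in the lower time), the 5 largest each way at 10 FPKM, up to 4 per list at 20 FPKM, the 5 highest at 300 minutes and ALB, AFP, CCND1, CCNE1, MYC, FOS, TXNIP, ACTB and CCNB1. Others were chosen after their values were seen. A few genes the rule names are not reported here. Promoter windows came from RefSeq (GRCh38.p14). Scripts were tested on simulated data; Python 3.11.15, numpy 2.4.6, pandas 2.3.3, scipy 1.17.1 and matplotlib 3.10.9 were used. In all 14 other settings were tried.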

Additional observations from a re-analysis of the deposited data

How the results depend on the processing

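No paired analysis was possible because each time is 1 pooled column, and leaving out each library could not be run for the same reason. Of 14 other settings, 3 were chosen after seeing the data (genes with 100 steps or more, without short RNAs and pseudogenes, genes with 1 distinct value). The count of genes at least 2-fold higher was 338 with a pseudocount of 10 FPKM, 343 with 50 FPKM in either time, 272 among genes with 100 steps or more and 337 without short RNAs and pseudogenes. At 1.5-fold the counts were 1638 higher and 1977 lower. The count of genes at least 2-fold lower was 451 among genes with 100 steps or more. The settings with fewer counts test fewer genes or damp low values. The other 9 values of the higher and 12 of the lower count were within 1.5 times. No setting moved the median of all genes by 0.1, and the higher share of called genes ran from 37.2% to 46.1%. List medians are given relative to the all-gene median of each setting. For NF-kB targets they ran from -1.17 to -0.93 and for immediate early genes from -0.87 to -0.75. For replication histones they ran from -0.82 to -0.65 and for DNA replication from 0.39 to 0.47. Of 2224 values of named genes under these settings 17 moved by more than 0.58 (log2) and no called value changed sign. Depth limits the short genes most.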

Other observations

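Gene families outside the lists were chosen after their values were seen, so their counts are a description. HOX genes, which set position along the body axis, were lower: of 18 compared 9 were at least 2-fold lower, 15 at least 1.5-fold lower and 0 higher, with a median of -0.97 relative to the compared genes. HOXA3 was at 379 FPKM at 165 and 180 FPKM at 300 minutes, HOXC8 at 145 and 32.9 FPKM, and HOXA11 at 71.7 and 22.6 FPKM. HOXA3 had been highest at 105 minutes, at 631 FPKM. Of the DLX homeobox genes, DLX2 was at 578, 723, 2020, 1776, 730.4 and 173 FPKM through the release and at 22.3 FPKM in the asynchronous culture. Of the WNT ligands 2 had at least 10 FPKM at both times, WNT10B at 102 and 43.2 FPKM and WNT11 at 42.8 and 13.8 FPKM.

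Clustered protocadherins, cell surface proteins encoded side by side in 3 gene clusters, lay on the other side. Of 15 PCDHB genes 5 were at least 2-fold and 13 at least 1.5-fold higher, with a median of 0.97 and none at least 1.5-fold lower. PCDHB13 was at 50.3, 53.1, 88.0, 79.4, 146 and 317 FPKM through the release. Of 22 PCDHG genes 9 exceeded 2-fold upward, with a median of 0.85, PCDHGB1 going from 115 to 292 FPKM. The 5 PCDHA genes compared reached 10 FPKM only at 300 minutes, so no count is given for them. PCDHG transcripts overlap and share their last exons, so their members are not separate measurements.

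Of 16 UGT genes with at least 10 FPKM at both times, which conjugate bilirubin and drugs, 4 exceeded 1.5-fold upward and none downward. The share of all compared genes, 9.58% upward, is not like for like, since it includes genes that reached 10 FPKM at 1 time only.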
